A study of Mus musculus with 16 samples.

Results

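The genes described here encode the protein subunits of oxidative phosphorylation, the 4 electron transport complexes and the ATP synthase of the mitochondrial inner membrane. They were taken by name from the protein-coding rows of the tables for tibialis anterior muscle and cortical bone. The names were those starting with Nduf and a letter a, b, c, s or v with a number, or with Uqcr, Cox4i, Cox5, Cox6, Cox7, Cox8, Atp5 or mt-, and Sdha, Sdhb, Sdhc and Sdhd. The rule uses names and no expression value, but it was set with earlier results of these data known. Of 39418 genes in the tables together, 99 qualified, of which 96 were in both tables and 3 (Cox6b2, Cox7b2 and Ndufb11b) were in the cortical bone table alone. The mitochondrial chromosome encodes 13 of them and the nuclear genome the rest, 83 in skeletal muscle and 86 in cortical bone. Cox7a2l, Ndufa4l2, Ndufb11b and the retained copy Cox5b-ps carry names of the family and were counted although they are paralogs or copies of subunit genes.

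Complex I (NADH dehydrogenase) and complex II (succinate dehydrogenase) pass electrons to ubiquinone, complex III (the cytochrome bc1 complex) passes them to cytochrome c, and complex IV (cytochrome c oxidase) passes them to oxygen. Complexes I, III and IV pump protons, and complex V (ATP synthase) uses the gradient to make ATP. The mitochondrial genome supplies core subunits of complexes I, III, IV and V, whereas complex II is wholly nuclear, so that the complexes need the output of both genomes. Skeletal muscle is rich in these complexes, more so in slow and oxidative fibers than in fast glycolytic ones.

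The mice were female C57BL/6 mice, 18 months old when treatment began and older when tissues were collected after it. They received BAY2416964 (BAY), an orally active antagonist of the aryl hydrocarbon receptor (AhR), at 30 mg/kg by oral gavage on 5 days a week for 8 weeks, or the vehicle (VEH) of ethanol, Solutol and water on the same schedule. RNA of 1 tibialis anterior muscle per mouse and of cortical bone shafts left after marrow isolation and collagenase digestion was sequenced from 4 mice a group and tissue, 16 libraries in all. Values are read counts scaled to a common library total (CPM), and a log2 fold change compares BAY with VEH on the deposited scale of log2 CPM plus a small offset. Because the tables of the 2 tissues were normalized apart, values of the tissues stand side by side and were not tested against each other.

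The libraries differed in ways that touch these genes. Reads on genes, recovered from the steps between low values, numbered 6131953 to 9262374 per muscle library and 930307 to 6951893 per bone library. In muscle, VEH replicate 3 stood apart: the summed level of 8 slow or oxidative fiber genes (such as Myh7 and Tnnt1) was 5542 CPM against 1030 to 1179 CPM in the other VEH mice and 1302 to 2113 CPM in the BAY-treated mice. The 8 adipocyte genes summed to 377 CPM in that library and to 38.6 to 56.6 CPM in the 7 others. Of 12 osteoblast and osteocyte genes, the 6 in the muscle table summed to 159.9 CPM in it and to 32.4 to 55.1 CPM in the 7 others. In bone, the summed level of 12 fast muscle fiber genes (such as Acta1 and Ckm) ran from 35.7 to 9035 CPM in VEH and from 89.6 to 41833 CPM in BAY, and all 12 osteoblast and osteocyte genes were detected in every library, at sums of 1528 to 31517 CPM. In muscle the 12 fast fiber genes summed to 120080 to 200990 CPM, the highest in BAY replicate 4. Olfactory receptor genes, used as a measure of background, lay at 0.126 to 0.182 CPM per kilobase in muscle and at 0.136 to 9.43 in bone.

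In skeletal muscle, a minority of the subunit genes passed an unadjusted threshold, all of them lower with BAY, and none passed after adjustment. At an unadjusted P value under 0.05 by limma, 17 of 96 genes were lower with BAY, where 3.07% of all 21011 genes were lower and 6.71% were higher. None of the 96 was higher at that threshold. The count of lower genes depended on the processing. It was 29 with median centring of the libraries and 27 with quantile normalization. It was 10 with array weights, which give less weight to noisier libraries, and 7 without a mean-variance trend. The latter pair of fits kept 10 and 7 of the 17. In the same order, 2442, 2531, 2287 and 1648 of all genes passed in either direction, against 2056 in the fit that gave 17. Among genes averaging 10 CPM or more, 14 of 87 subunit genes were lower and 0 were higher, where 4.89% of 5559 such genes were lower and 13.9% were higher. Every BAY library lay below every VEH library for 5 subunit genes, against 1.53% of all genes, and above for 0, against 4.2%. With the further demand of a fold change of at least 2, which 2.43% of all genes met, 1 subunit gene was left, mt-Atp8. Its level is uncertain, because its sequence recurs on chromosome 1, as described below. None of the genes passed after Benjamini-Hochberg adjustment by limma over all genes, where the smallest adjusted P value was 0.184 over all genes and 0.295 over the subunit genes.

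The change was small for most members. Across the 96 genes, 76 had a log2 fold change under 0, as had 9412 of all 21011 genes, the median was -0.18, and the median over all genes was 0.06. The nuclear genes had a median of -0.15 and a range of -0.79 to 0.67, whereas the 13 mitochondrially encoded genes had a median of -0.37 and a range of -1.07 to 0.18. By complex, the nuclear medians were -0.15 for the 36 genes of complex I, -0.16 for the 4 of complex II, -0.18 for the 8 of complex III, -0.23 for the 18 of complex IV and -0.10 for the 17 of complex V. The genes that passed the threshold fell in complex I (8 nuclear and 1 mitochondrial), complex III (2 nuclear), complex IV (1 nuclear) and complex V (4 nuclear and 1 mitochondrial). Complex II had 0 of 4. The nuclear median was -0.23 with CPM taken over nuclear genes alone, a scaling that leaves out the mitochondrial ribosomal RNA, which made up 10.9% to 24.3% of CPM. It was -0.21 with quantile normalization, -0.22 without VEH replicate 2 and -0.092 without VEH replicate 3. The median over all genes moved from its 0.06 as well. It was -0.021 with CPM over nuclear genes, -0.0083 with quantile normalization, 0.079 without VEH replicate 2 and 0.12 without VEH replicate 3. Without VEH replicate 3, 7 of the 17 genes still passed. Without BAY replicate 4, BAY replicate 1 or VEH replicate 1, the number passing was 8, 8 and 11.

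**Figure D1:**
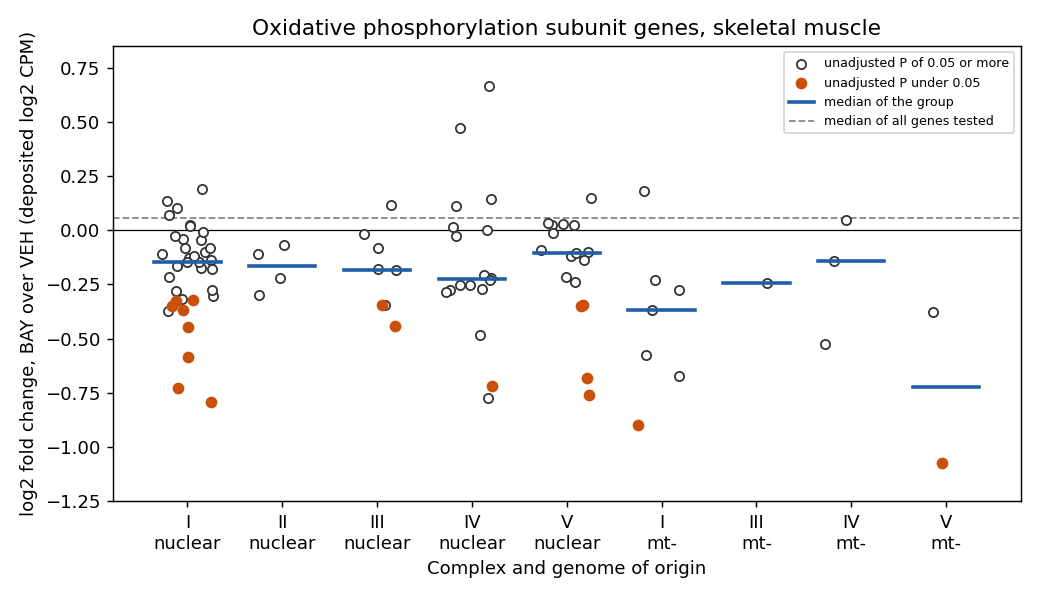
Each point is 1 of the 96 subunit genes in skeletal muscle, placed by complex and by genome of origin (mt-, mitochondrially encoded) on the x axis and by its log2 fold change of BAY over VEH on the y axis. Filled points are the 17 genes with an unadjusted P value under 0.05, all of them below 0, blue bars are group medians, and the dashed line is the median of all 21011 genes at 0.06.

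The complex IV gene Cox7a2 had the smallest P value of the family. It encodes the widely expressed isoform of subunit VIIa, which in heart and skeletal muscle is accompanied by the product of Cox7a1. Cox7a2 (ENSMUSG00000032330; mm39 chromosome 9, 79662643 to 79667160, minus strand) measured 14.1, 13.7, 11.6 and 9.66 CPM in VEH replicates 1 to 4 and 6.74, 8.81, 8.13 and 6.03 CPM in BAY replicates 1 to 4. All BAY values lay below all VEH values. The means were 12.2 ± 2.05 and 7.43 ± 1.27 CPM (SD, n = 4 each), a log2 fold change of -0.72 ± 0.19 (SE; unadjusted P = 0.00179, adjusted P = 0.295 by limma), and the gene was 1.65-fold lower. Cox7a1 measured 24.3, 18.8, 20.8 and 20.3 CPM in VEH and 15.5, 19.1, 21.7 and 16.3 CPM in BAY, groups that overlapped (log2 fold change -0.22, unadjusted P = 0.155 by limma). Among nuclear complex IV genes averaging at least 1 CPM, the lowest log2 fold change was that of Cox6a1 and the highest that of Ndufa4l2. Neither passed the threshold.

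Within this isoform pair, the balance could be read free of library scaling, as the share of 1 isoform in the summed CPM per kilobase of both. Cox7a1 made up 76.1%, 71.8%, 76.9% and 79.5% of the pair in VEH and 81.0%, 80.0%, 83.1% and 83.3% in BAY. Every BAY-treated mouse had a higher share than every VEH-treated mouse, by 5.77 percentage points in the mean and by 6.05 without VEH replicate 3. The exact two-sided permutation P value was 0.0286, the smallest that 4 against 4 can give, and 0.143 after adjustment over the 5 pairs tested. The other muscle pairs overlapped between groups. The share of the muscle isoform Cox6a2 was 96.8% ± 1.14 in VEH and 98.2% ± 0.781 in BAY (SD, n = 4 each, exact permutation P = 0.114, adjusted 0.238), and that of Cox8b was 77.4% ± 8.10 and 80.2% ± 8.17 (exact permutation P = 0.629). Cox4i2, the isoform known for its response to oxygen, made up 0.603% ± 0.304 of its pair in VEH and 0.827% ± 0.185 in BAY (exact permutation P = 0.314, n = 4 each), on 2 to 9 reads of Cox4i2 a library. For Ndufa4l2, a paralog of Ndufa4 induced under low oxygen, the share was 1.74% ± 0.344 and 3.03% ± 1.38 (exact permutation P = 0.143, n = 4 each).

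In complex V, 4 nuclear genes were lower. Atp5k (subunit e) and Atp5md (the small DAPIT subunit) belong to the membrane part through which ATP synthase forms dimers, Atp5pb encodes subunit b of the peripheral stalk, and Atp5c1 encodes subunit gamma of the central stalk. Atp5k (ENSMUSG00000050856; chromosome 5, 108581110 to 108582314, minus strand) measured 32.2, 19.4, 22.3 and 22.9 CPM in VEH and 9.77, 18.8, 16.0 and 13.2 CPM in BAY. The groups did not overlap, though VEH replicate 2 and BAY replicate 2 lay close to each other. Its log2 fold change was -0.76 ± 0.21 (SE; unadjusted P = 0.00262, adjusted P = 0.297 by limma). Atp5md (ENSMUSG00000071528; chromosome 19, 47071903 to 47079086, minus strand) measured 6.40, 6.41, 8.52 and 7.99 CPM in VEH and 4.24, 4.89, 5.81 and 3.51 CPM in BAY. These groups did not overlap either, at a log2 fold change of -0.68 ± 0.22 (SE; unadjusted P = 0.00725 by limma), but the values rest on 25 to 79 reads a library. Atp5c1 and Atp5pb were lower by less, at log2 fold changes of -0.34 and -0.35, and without VEH replicate 3 they lay at -0.21 and -0.20, with unadjusted P values of 0.0827 and 0.0832 by limma. Atp5a1 and Atp5b, which form the catalytic head, had log2 fold changes of 0.03 and 0.02. Atp5d, subunit delta of the central stalk, had the highest log2 fold change of the complex at 0.15 (unadjusted P = 0.293 by limma).

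In complex I, 8 nuclear genes were lower. Ndufa1 encodes a small membrane arm subunit needed for assembly, Ndufa12 and Ndufs6 encode accessory subunits near the NADH-oxidizing end of the matrix arm, and Ndufv2 encodes an iron-sulfur subunit of that end. Ndufa1 (ENSMUSG00000016427; chromosome X, 36451241 to 36454816, minus strand) measured 10.01, 8.37, 8.96 and 7.75 CPM in VEH and 5.09, 5.87, 6.84 and 5.61 CPM in BAY, with no overlap (log2 fold change -0.59 ± 0.18, SE; unadjusted P = 0.00570 by limma). Ndufs6 (ENSMUSG00000021606; chromosome 13, 73467957 to 73476661, minus strand) measured 13.7, 13.5, 14.9 and 11.98 CPM in VEH and 9.91, 9.62, 9.16 and 11.1 CPM in BAY. This was the narrowest change among the non-overlapping genes, at -0.44 ± 0.15 (SE; unadjusted P = 0.00928 by limma). Ndufa12 (ENSMUSG00000020022; chromosome 10, 94034582 to 94057305, plus strand) measured 21.4, 11.4, 18.0 and 20.5 CPM in VEH and 12.6, 12.1, 11.05 and 5.99 CPM in BAY, where VEH replicate 2 fell among the BAY values. Its log2 fold change of -0.79 ± 0.25 (SE; unadjusted P = 0.00757 by limma) was the lowest of the nuclear genes.

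Ndufv2 and Ndufb1, a small membrane arm subunit, changed less evenly. Ndufv2 measured 70.1, 57.4, 77.3 and 66.1 CPM in VEH and 48.4, 57.4, 59.6 and 51.0 CPM in BAY (log2 fold change -0.32, unadjusted P = 0.0242 by limma). Without VEH replicate 3 it lay at -0.25 (unadjusted P = 0.0515 by limma). For Ndufb1, 3 BAY values of 11.4, 9.95 and 10.1 CPM lay near the VEH values of 14.4, 10.9, 16.8 and 12.3 CPM, and BAY replicate 4 lay at 3.79 CPM. Its log2 fold change was -0.73 with all libraries, -0.36 without BAY replicate 4 (unadjusted P = 0.0676 by limma) and -0.62 without VEH replicate 3 (unadjusted P = 0.0833 by limma). Ndufs3, Ndufa5 and Ndufb5 made up the remaining complex I genes below the threshold, at log2 fold changes of -0.33, -0.37 and -0.35. Without VEH replicate 3 they lay at -0.26, -0.27 and -0.27, with unadjusted P values of 0.0719, 0.103 and 0.0964 by limma. Ndufv1, which carries the NADH binding site, had the highest log2 fold change of the complex, 0.19 ± 0.12 (SE; unadjusted P = 0.136 by limma).

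**Figure D2:**
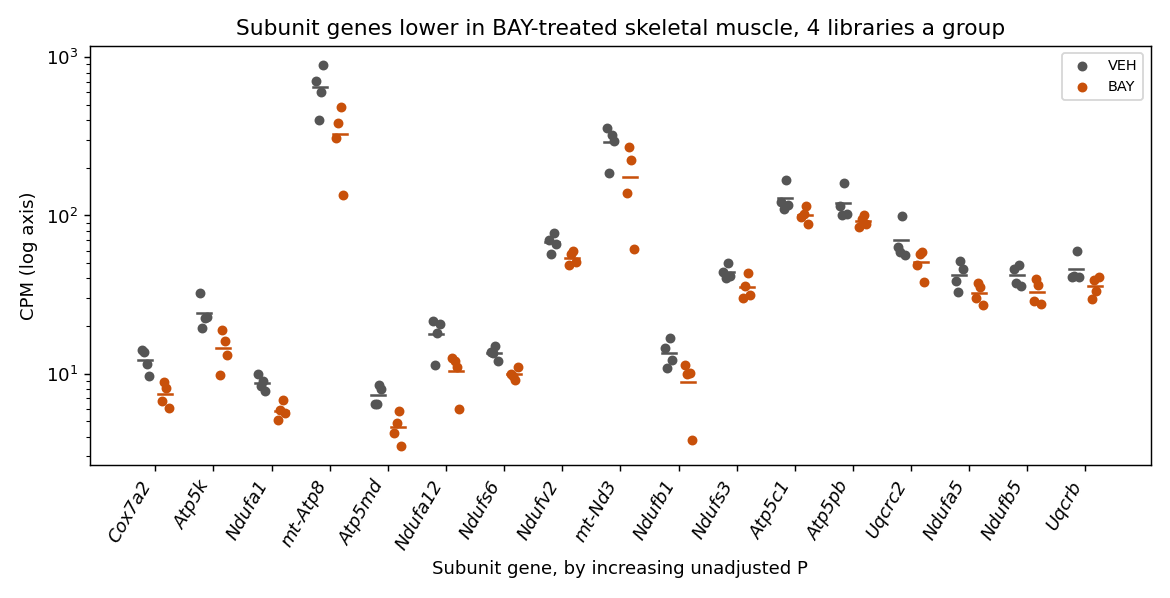
CPM on a log axis of the 17 genes lower in BAY-treated muscle, with 1 point per library, short bars at the group means, and genes ordered by unadjusted P value. The BAY points of Cox7a2, Atp5k, Ndufa1, Atp5md and Ndufs6 lie wholly below the VEH points, and BAY replicate 4 is the lowest point of mt-Atp8, mt-Nd3, Ndufa12 and Ndufb1.

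In complexes II and III, 2 genes passed the threshold, Uqcrc2 and Uqcrb, both of complex III. Uqcrc2, a core protein on the matrix side, measured 63.5, 58.9, 99.8 and 56.5 CPM in VEH and 49.0, 56.7, 59.2 and 37.7 CPM in BAY. VEH replicate 3 was the highest value by far, and the log2 fold change was -0.44 with all libraries (unadjusted P = 0.0352 by limma) and -0.26 without it (unadjusted P = 0.114 by limma). Uqcrb had a log2 fold change of -0.34 with all libraries and -0.21 without VEH replicate 3 (unadjusted P = 0.135 by limma), and Uqcrq had the highest of the complex, 0.12. Sdha, the flavoprotein of complex II, measured 311, 303, 432 and 312 CPM in VEH and 299, 311, 315 and 321 CPM in BAY. Apart from VEH replicate 3, all 7 values lay between 299 and 321 CPM. Sdhb, Sdhc and Sdhd were likewise highest in VEH replicate 3, and their log2 fold changes were -0.07, -0.22 and -0.30, with unadjusted P values of 0.667, 0.188 and 0.114 by limma.

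A few libraries held many of the extreme values of the family. Of the 74 nuclear genes averaging 10 CPM or more, 39 had their highest value in VEH replicate 3, the library with the most slow fiber, adipocyte and bone cell RNA, and 29 had their lowest in BAY replicate 1. The median deviation from the gene mean in that VEH library was 0.28 on the log2 scale, against -0.08 to 0.09 in the other VEH libraries and -0.19 to 0.03 in the BAY libraries. The part of fiber type, adipocyte and bone cell RNA in the lowered genes was not tested. Fewer cells of a type and less RNA per cell cannot be told apart in bulk tissue. The 7 genes Cox7a2, Atp5k, Ndufa1, mt-Atp8, Atp5md, Ndufa12 and Ndufs6 stayed lower at an unadjusted P value under 0.05 by limma in each of the 8 fits that left out 1 library. For mt-Atp8, these fits do not touch the uncertainty from its copy on chromosome 1. Without VEH replicate 3, the log2 fold changes of Cox7a2, Atp5k and Ndufa1 were -0.74, -0.79 and -0.57.

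The mitochondrially encoded mRNAs made up 5.94%, 4.59%, 5.47% and 7.24% of CPM in VEH muscle and 4.85%, 5.22%, 6.23% and 3.02% in BAY muscle. The nuclear members together made up 0.626%, 0.581%, 0.754% and 0.606% in VEH and 0.560%, 0.635%, 0.623% and 0.622% in BAY. Both ranges overlapped between the groups. VEH replicate 4 held the highest value of 11 of the 13 mitochondrial genes and BAY replicate 4 the lowest of 12. BAY replicate 4 was also the library highest in fast fiber RNA, and the part of that in its mitochondrial values was not tested. Without it the median log2 fold change of the 13 was -0.16 in place of -0.37.

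Among these, mt-Atp8 and mt-Nd3 passed the threshold. mt-Atp8 encodes a small subunit of ATP synthase on the same transcript as mt-Atp6, and mt-Nd3 a membrane subunit of complex I. mt-Atp8 (ENSMUSG00000064356; mitochondrial chromosome, 7766 to 7969, plus strand) measured 706, 399, 603 and 894 CPM in VEH and 308, 383, 487 and 135 CPM in BAY. VEH replicate 2 lay between the BAY values, and the log2 fold change was -1.07 ± 0.34 (SE; unadjusted P = 0.00676, adjusted P = 0.338 by limma), or -0.69 without BAY replicate 4 (unadjusted P = 0.0221 by limma). mt-Atp6, on the same transcript, had a log2 fold change of -0.38 (unadjusted P = 0.139 by limma). mt-Nd3 measured 358, 186, 321 and 296 CPM in VEH and 139, 272, 225 and 61.5 CPM in BAY, at -0.90 (unadjusted P = 0.0275 by limma) and at -0.47 without BAY replicate 4 (unadjusted P = 0.103 by limma). Without VEH replicate 3 it lay at -0.84 (unadjusted P = 0.0690 by limma).

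The other 11 did not pass. Among the complex I genes, mt-Nd1 and mt-Nd2 lay at -0.58 and -0.67 (unadjusted P = 0.134 and 0.0600 by limma), mt-Nd4, mt-Nd5 and mt-Nd6 at -0.28, -0.23 and -0.37, and mt-Nd4l at 0.18. mt-Cytb, cytochrome b of complex III, lay at -0.24. Of the 3 core subunits of complex IV, mt-Co1 lay at -0.14, mt-Co2 at 0.05 and mt-Co3 at -0.53 (unadjusted P = 0.0733 by limma).

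Levels of several of these genes are uncertain because their sequence recurs in the nuclear genome. Mouse chromosome 1 carries a copy of a stretch of the mitochondrial genome, annotated as a row of pseudogenes, and the reads of the tables were divided between both places. The first 150 bases of mt-Co3 (mm39, chrM:8607-8756, plus strand) and of its copy Gm28437 (chr1:24652903-24653052, minus strand) are shown because they are the same letter for letter. A stretch of mt-Co1 (chrM:6390-6539, plus strand) and of its copy Gm29216 (chr1:24655120-24655269, minus strand) is shown because it holds the only mismatch found, A4T counted from the first base shown, in capitals.
mt-Co3: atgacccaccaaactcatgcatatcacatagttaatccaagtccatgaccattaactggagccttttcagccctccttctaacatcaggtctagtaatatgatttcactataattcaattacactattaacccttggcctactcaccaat
Gm28437: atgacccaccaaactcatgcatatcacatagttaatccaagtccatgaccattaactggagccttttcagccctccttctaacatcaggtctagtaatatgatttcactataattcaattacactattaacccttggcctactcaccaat
mt-Co1: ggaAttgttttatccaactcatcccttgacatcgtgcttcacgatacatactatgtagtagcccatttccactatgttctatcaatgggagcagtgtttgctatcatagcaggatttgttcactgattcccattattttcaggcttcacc
Gm29216: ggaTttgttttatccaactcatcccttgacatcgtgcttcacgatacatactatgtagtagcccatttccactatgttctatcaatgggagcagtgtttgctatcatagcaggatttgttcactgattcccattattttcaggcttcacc

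The genes mt-Atp6, mt-Atp8, mt-Co2, mt-Co3 and mt-Nd4l were found over their whole length at 100% identity on chromosome 1, and mt-Nd3 over 99.1% of its length. For mt-Nd4, 63.6% of the gene was found at 100% identity, and for mt-Co1, 31.3% was found at 99.8%. No match was found there for mt-Cytb, mt-Nd1, mt-Nd2, mt-Nd5 and mt-Nd6. The division of reads followed no single ratio. In muscle, the copy row held 75.9% to 82.6% of the CPM of mt-Atp6 and its copy Gm10925, 79.3% to 85.5% for mt-Co3, 74.7% to 84.9% for mt-Co2, 61.7% to 76.6% for mt-Nd4l and 19.0% to 36.1% for mt-Nd3. It held 1.35% to 3.63% for mt-Nd4 and 1.90% to 3.13% for mt-Co1. mt-Atp8 had no copy row of its own, so it could not be summed with its copy and its level stays uncertain.

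With each gene summed with its copy, mt-Nd3 alone of the 7 passed the threshold. The log2 fold change of the sum was -0.44 for mt-Atp6 (unadjusted P = 0.278 by limma), -0.62 for mt-Co3 (unadjusted P = 0.0743), -0.21 for mt-Co2 (unadjusted P = 0.492), -0.01 for mt-Nd4l (unadjusted P = 0.977), -0.29 for mt-Nd4 (unadjusted P = 0.437), -0.15 for mt-Co1 (unadjusted P = 0.757) and -0.81 for mt-Nd3 (unadjusted P = 0.0318). The sums of mt-Co3 and Gm28437 ran 3741, 2001, 2975 and 3099 CPM in VEH and 1825, 2642, 2544 and 1004 CPM in BAY. The sum for mt-Nd4l turned from a fold change above 0 to about 0.

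**Figure D3:**
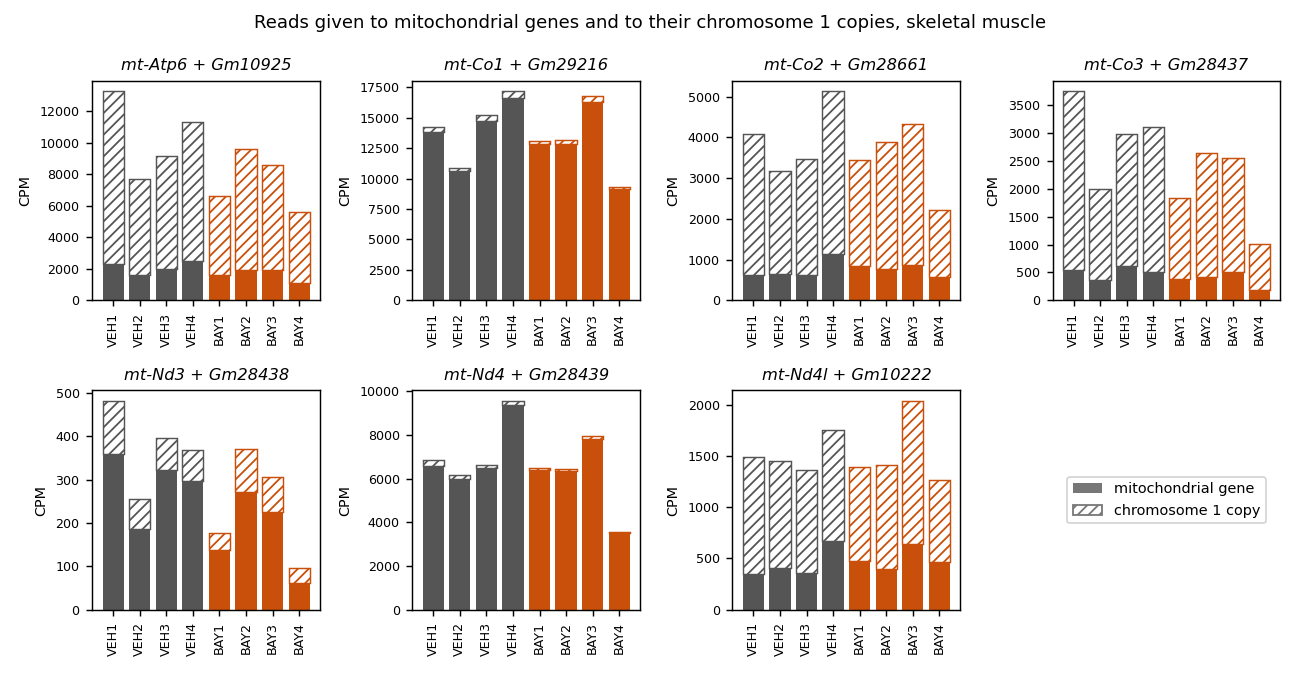
Stacked bars give the CPM of 7 mitochondrial genes (filled) and of their chromosome 1 copies (hatched) in each skeletal muscle library, VEH in grey and BAY in orange. The copy takes most of the reads for mt-Atp6, mt-Co2, mt-Co3 and mt-Nd4l and few for mt-Co1 and mt-Nd4, and BAY replicate 4 has the lowest sum in all 7 panels.

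Some of the lowered nuclear genes share sequence with processed copies too. A copy without introns at 95% identity or more was found for 6 of the 15 lowered nuclear genes and for 14 of the 68 others in muscle. Atp5k had 2 such copies, Atp5md and Uqcrb had 3 each, and Ndufa12, Ndufs6 and Atp5pb had 1 each, whereas Cox7a2 and Ndufa1 had 0. Levels of genes with such copies are uncertain by as many reads as went to or came from the copies. The lowered nuclear genes had a median coding length of 348 bases against 426 bases for the others, and median levels of 37.4 and 43.5 CPM. Across the 74 nuclear genes averaging 10 CPM or more, the log2 fold change had a Spearman correlation of 0.00 with transcript length, 0.19 with coding length and 0.51 with mean CPM, so that the more abundant subunits had the higher fold changes. These are correlations across genes of the same libraries, which are not independent of each other.

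The promoters of these genes were read in RefSeq windows (GRCm38.p6) of the 250 bases before the start. Of 86 nuclear genes, 69 matched a window, including 13 of the 15 lowered in muscle. The motifs searched, on both strands, were GCGTG, the core that AhR binds in its response element, the NRF1 palindrome, CCGGAAGT for GABPA and AAGATGGC for YY1, factors known from respiratory gene promoters. GCGTG was in the windows of 42.0% of the 69 genes and of 30.9% of all 27025 genes with a window. It was in 6 of the 13 lowered genes and in 23 of the 56 others. The NRF1 letters were in 5.80% of the subunit genes against 0.877% of all genes, those of GABPA in 4.35% against 3.23%, and those of YY1 in 1.45% against 1.83%. The windows of Cox7a2 (chr9:79759854-79760103, minus strand), Atp5k (chr5:108434400-108434649, minus strand) and Atp5md (chr19:47090648-47090897, minus strand) are shown, 5′ to 3′, because, of the 5 genes without overlap between groups, these 3 hold a searched motif. The windows of the other two, Ndufa1 and Ndufs6, hold none of the letters searched. The capitals mark GCGTG on either strand, and in Atp5k the single NRF1 match as well, and a match is a description and not a binding site.
Cox7a2: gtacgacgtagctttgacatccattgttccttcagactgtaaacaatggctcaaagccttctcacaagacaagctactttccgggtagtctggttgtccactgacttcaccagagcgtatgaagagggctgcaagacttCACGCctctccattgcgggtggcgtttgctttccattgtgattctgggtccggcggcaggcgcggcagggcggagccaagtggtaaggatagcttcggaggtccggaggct
Atp5k: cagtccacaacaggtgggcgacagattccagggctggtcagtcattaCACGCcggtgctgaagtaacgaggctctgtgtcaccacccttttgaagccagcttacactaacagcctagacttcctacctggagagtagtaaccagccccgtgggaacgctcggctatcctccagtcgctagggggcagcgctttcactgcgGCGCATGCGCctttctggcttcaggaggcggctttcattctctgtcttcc
Atp5md: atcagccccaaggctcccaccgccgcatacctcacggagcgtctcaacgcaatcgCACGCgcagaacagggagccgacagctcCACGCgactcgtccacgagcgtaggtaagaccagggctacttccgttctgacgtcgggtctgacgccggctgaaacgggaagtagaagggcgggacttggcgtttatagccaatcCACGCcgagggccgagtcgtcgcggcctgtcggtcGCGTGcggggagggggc

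The genes that build and serve the complexes were counted from lists of their own. Of 52 assembly factors and electron carriers, all of them in the table, 4 were lower at an unadjusted P value under 0.05 by limma and 0 were higher, where 3.07% of all genes were lower and 6.71% higher. Their median log2 fold change was -0.14. The list also held Cyc1, cytochrome c1 of complex III, and Ndufab1, a complex I subunit, whose names the rule for members did not take. These genes lay at 0.09 and -0.20. Cox16, an assembly factor of complex IV, measured 6.16, 8.14, 9.30 and 5.92 CPM in VEH and 6.21, 4.995, 3.65 and 3.31 CPM in BAY (log2 fold change -0.72, unadjusted P = 0.0120 by limma). Cycs, which encodes cytochrome c, measured 46.7, 37.7, 74.9 and 53.2 CPM in VEH and 35.9, 45.0, 41.1 and 28.9 CPM in BAY (-0.47, unadjusted P = 0.0317 by limma), with its highest value in VEH replicate 3. Higd2a, an assembly factor of complex IV and supercomplexes, and Ndufaf4, an assembly factor of complex I, lay at -0.40 and -0.46 (unadjusted P = 0.0336 and 0.0365 by limma). Groups overlapped for all 4. Every BAY library lay below every VEH library for 3 of the 52, Coa3, Pet100 and Bcs1l, against 1.53% of all genes, and these are named after their values were seen. Their log2 fold changes were -0.32, -0.66 and -0.42 (unadjusted P = 0.0590, 0.0683 and 0.113 by limma), and for Coa3 the nearest values of the groups were 9.30 and 9.29 CPM. Without VEH replicate 3, Cox16 lay at -0.60 (unadjusted P = 0.0368 by limma), and Cycs, Higd2a and Ndufaf4 lay at -0.29, -0.35 and -0.30 (unadjusted P = 0.107, 0.0633 and 0.116 by limma). Of 26 genes of mitochondrial transcription and biogenesis, such as Ppargc1a, Tfam and Polrmt, 0 passed in either direction, with a median of -0.15.

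In cortical bone, no subunit gene passed the threshold in the fit of all 8 libraries. At an unadjusted P value under 0.05 by limma, 0 of 99 genes were lower, where 0.095% of all 38933 genes were lower, and 0 were higher, where 0.545% of all genes were higher. With the demand of a fold change of at least 2, the count was 0 against 0.64% of all genes. Array weights, an alternative, gave 43 subunit genes higher, where 901 of the 38933 genes passed in either direction. Leaving out 1 library gave 0 to 5, where 115 to 1116 of all genes passed in either direction. The smallest adjusted P value was 0.887 over all genes and over the subunit genes. No gene lay lower without overlap (0.0514% of all genes did), and 3 lay higher without overlap (0.354% of all genes did). These 3 were Ndufa4, Ndufs3 and Atp5e, of which the latter pair is named after its values were seen.

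Ndufa4, a subunit of complex IV despite its name, measured 4.32, 3.68, 4.96 and 7.28 CPM in VEH bone and 18.3, 28.1, 14.3 and 8.60 CPM in BAY bone. Its log2 fold change was 1.70 ± 0.79 (SE; unadjusted P = 0.0522 by limma), and the 2 highest values were those of the libraries highest in fast fiber RNA, BAY replicates 1 and 2. Ndufs3 measured 1.58, 6.44, 5.67 and 7.28 CPM in VEH and 13.4, 14.2, 14.2 and 11.8 CPM in BAY (1.56 ± 0.86, unadjusted P = 0.0913 by limma). Atp5e, the epsilon subunit of ATP synthase, measured 18.8, 14.7, 15.6 and 15.3 CPM in VEH and 40.7, 45.5, 20.4 and 19.3 CPM in BAY (0.87 ± 0.60, unadjusted P = 0.170 by limma). The lowest ratio of a library to its olfactory receptor level per kilobase was 0.89 for Ndufa4, 0.575 for Ndufs3 and 4.41 for Atp5e. Ndufa4 stood at over 3 times that level in 5 libraries, Ndufs3 in 3 and Atp5e in 8.

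In the fit of all 8 bone libraries, the median log2 fold change was 0.82 for the 86 nuclear genes and 0.84 for all genes, and 77 of the 86 were above 0, as were 31502 of all 38933 genes. These medians parted in other fits, at 1.55 and -0.33 with array weights, 0.50 and 0.025 with quantile normalization, 0.80 and -0.088 without VEH replicate 1 and 0.61 and 1.52 without VEH replicate 2. By complex, the nuclear medians were 0.87 for complex I, 0.83 for complex II, 0.76 for complex III, 0.61 for complex IV and 0.81 for complex V. The 13 mitochondrially encoded genes had a median of 0.02, with a range of -0.43 for mt-Atp8 to 0.76 for mt-Nd3 (unadjusted P = 0.552 and 0.258 by limma). With 1 library left out, that median ran from -0.32 without VEH replicate 4 to 0.41 without VEH replicate 1. With array weights it was 0.33. Median centring, which moves every gene of a library by the same amount and brings the median of all genes to about 0, by its construction placed the nuclear median at -0.030 and the mitochondrial median at -0.83. In VEH replicates 1 to 4 the mitochondrial mRNAs made up 5.10%, 2.79%, 1.26% and 0.965% of CPM, and in BAY replicates 1 to 4 they made up 3.67%, 3.91%, 1.28% and 0.924%. The groups covered nearly the same range.

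**Figure D4:**
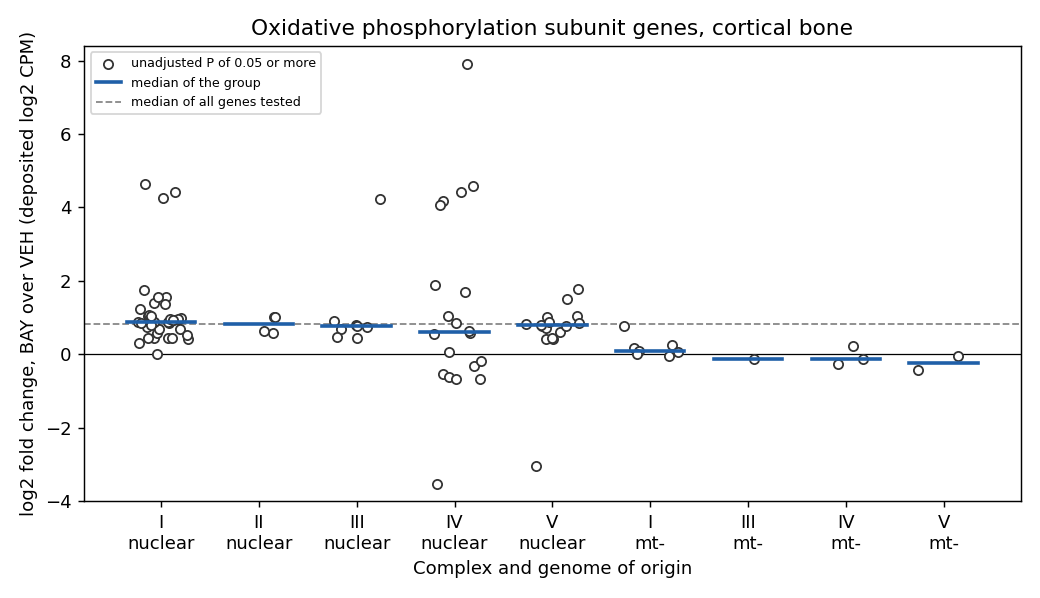
Each point is 1 of the 99 subunit genes in cortical bone, by complex and genome of origin on the x axis and by log2 fold change of BAY over VEH on the y axis, with group medians as blue bars. No gene has an unadjusted P value under 0.05, the nuclear groups centre near the median of all genes at 0.84 (dashed line), and the mitochondrial groups centre near 0.

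Most nuclear members were too low in bone for a finer reading. Only 6 of 86 stood at over 3 times the olfactory receptor level per kilobase in all 8 libraries (Ndufb5, Ndufb7, Cox6c, Atp5e, Atp5g1 and Atp5l), against 81 of 83 in muscle, where Cox4i2 and Atp5g2 did not. A total of 16 were listed at 0 in at least 1 bone library. The largest fitted fold changes, such as 7.90 for Cox7a1 and -3.53 for Cox7a2, come from genes listed at 0 in some libraries and depend on the offset, and they are not read as folds. Atp5d, Ndufs6 and Uqcr10, the lowest of complex V and the highest of complexes I and III, were each listed at 0 in 1 library as well. Among nuclear genes never at 0, Atp5md had the highest fitted value of complex V, 1.78 (unadjusted P = 0.261 by limma), Ndufa2 had the lowest of complex I, -0.0020, and Uqcrb had the lowest of complex III, 0.44. Atp5md measured 0.144 CPM on 1 read in VEH replicate 1, under the floor of 3 reads. In no library did it exceed 3 times the olfactory receptor level, so its value is not read as a fold either. The succinate dehydrogenase genes Sdha, Sdhb, Sdhc and Sdhd lay at 1.02, 1.02, 0.57 and 0.65, with unadjusted P values of 0.253, 0.258, 0.349 and 0.438 by limma. Sdha measured 58.3, 8.29, 54.2 and 64.8 CPM in VEH and 132, 166, 81.0 and 16.1 CPM in BAY.

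Cox6a2 and Cox8b had their 3 highest bone values in the 3 libraries richest in fast fiber RNA. Cox6a2, whose product belongs to heart and skeletal muscle, measured 9.78, 0.921, 0.709 and 0.728 CPM in VEH and 40.2, 45.5, 4.58 and 0 CPM in BAY. Its share of the pair with Cox6a1 was 62.0%, 14.4%, 3.60% and 2.81% in VEH and 92.6%, 89.4%, 22.5% and 0% in BAY. The 12 fast fiber genes summed to 9035, 249, 78.9 and 35.7 CPM in VEH and to 38049, 41833, 1442 and 89.6 CPM in BAY. The 4 libraries with the most fiber RNA, VEH replicate 1 and BAY replicates 1 to 3, were the 4 with the highest Cox6a2 shares. In VEH replicates 2, 3 and 4 the shares rest on 1, 2 and 1 reads of Cox6a2, under the floor of 3 reads, so that their order is uncertain. Cox8b, another muscle isoform, measured 8.34 CPM in VEH replicate 1 and 21.0 and 29.4 CPM in BAY replicates 1 and 2, and at most 1.84 CPM in the 5 others. Cox7a1 was listed at 0 in 4 libraries, VEH replicates 2, 3 and 4 and BAY replicate 4. No isoform pair of bone was tested, since each had fewer than 20 reads in at least 1 library.

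BAY replicates 1 and 2, the libraries highest in fast fiber RNA, also had the highest summed nuclear members, at 3097 and 3468 CPM against 962 to 1809 CPM in the 6 others. For 32 of 52 nuclear genes averaging 10 CPM or more, BAY replicate 2 held the highest value. The mitochondrial sum was highest in VEH replicate 1, at 50964 CPM, and reached 36691 and 39087 CPM in BAY replicates 1 and 2. Without VEH replicate 1 and BAY replicates 1 and 2, the 3 libraries richest in fiber RNA, the nuclear median log2 fold change was 0.22, the mitochondrial median -0.44 and the median of all genes 0.27, and 0 members passed in either direction by limma. Of the pathway genes, 0 of 52 assembly factors and carriers and 0 of 26 transcription and biogenesis genes passed in bone, where 0.095% of all genes were lower and 0.545% higher, so that nothing is read from these counts. Their medians were 0.59 and 0.52.

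**Figure D5:**
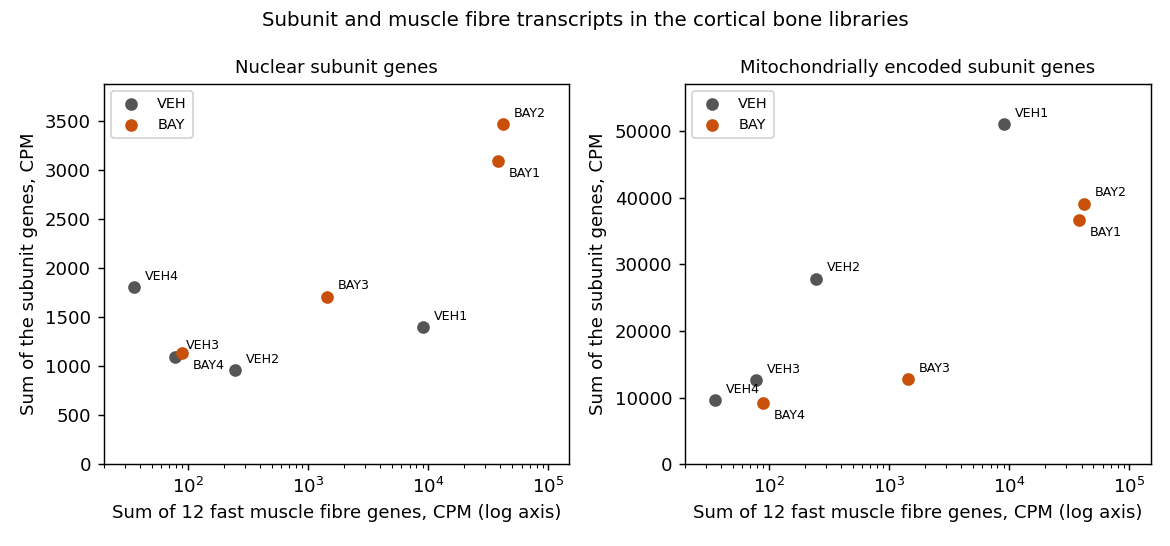
Each point is a cortical bone library, with the summed CPM of 12 fast muscle fiber genes on a log x axis and the summed CPM of the nuclear (left) or mitochondrially encoded (right) subunit genes on the y axis. BAY replicates 1 and 2 are highest for fiber genes and nuclear subunits, at 3097 and 3468 CPM, and together with VEH replicate 1 they are the 3 highest for mitochondrial subunits.

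The 17 genes lower in muscle were also read in bone. Among them, Cox7a2 was listed at 0 in 1 bone library, Ndufa1 in 2 and Ndufs6 in 1. Atp5k measured 1.87, 2.76, 1.42 and 5.82 CPM in VEH bone and 7.60, 7.03, 7.13 and 1.07 CPM in BAY bone (log2 fold change 0.82, unadjusted P = 0.540 by limma). Of the 14 genes never at 0 in bone, 13 had a log2 fold change above 0, as did 31502 of all 38933 genes, so that nothing is read from this count. The nuclear ones ran from 0.41 for Ndufb1 to 1.78 for Atp5md, with Ndufv2 at 1.38, Atp5c1 at 1.03, Ndufa12 at 0.94, Atp5pb at 0.89, Ndufa5 at 0.87, Ndufb5 at 0.86, Uqcrc2 at 0.79 and Uqcrb at 0.44, and the smallest unadjusted P value by limma was the 0.0913 of Ndufs3. The value of Atp5md includes a library with 1 read, VEH replicate 1. Whether the response differed between the tissues was not tested. Cox6b2, Cox7b2 and Ndufb11b, the 3 members found in the bone table alone, lay at 0 to 0.921, 0 to 5.37 and 0.575 to 20.3 CPM.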

How the data were processed

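Before deposit, the authors trimmed reads, ran STAR (version 2.7.8a, per the labels) against mm39, quantified Ensembl genes by expectation maximization in Partek Flow, and deposited log2 values of CPM plus an offset, 0.0001 in cortical bone and 0.0004 in skeletal muscle. Muscle libraries came from poly(A)-selected RNA. For this report BAY and VEH were compared per tissue over all genes of its table (21011 in muscle, 38933 in bone) by limma (version 3.58.1, R version 4.3.3), fitted with lmFit and a trended eBayes, two-sided, without a filter or covariate. Benjamini-Hochberg adjustment ran across the whole table. A gene passed at an unadjusted P value under 0.05, since none passed after adjustment. Isoform shares were compared by exact permutation. The value of a read was taken from the steps between low values, of which 81.3% to 88.4% up to 50 reads came out whole within 0.02. It gives a floor (3 reads) of 0.324 to 0.489 CPM in muscle and 0.432 to 3.23 CPM in bone, for counting error only.

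Mitochondrial and coding sequences were aligned to GRCm39 with BLAST+ (version 2.17.0), and transcript lengths came from GENCODE. Genes chosen for naming were those of the isoform pairs, the 13 mitochondrial genes, complex II, up to 10 per tissue and direction by P value, the extremes of each complex, and pathway genes that passed. Levels and fold changes are not given for every one of them. Other members are named to account for a count. The members and lists were chosen with earlier results of these data known. Each library is 1 mouse by the study's methods. The column of skeletal muscle VEH replicate 3 bears a word for replacement, which the sources used here do not explain. Fits were tested on simulated data. Alternatives were offsets of 1 and 0.1 CPM, dropping genes averaging under 1 CPM, median centring, CPM over nuclear genes, quantile normalization, no trend, array weights, voom on recovered reads, a block for replicate number and leaving out each library. Sums of mitochondrial genes with their copies and bone without its 3 libraries richest in fiber RNA were added after seeing the data. Same-numbered libraries were not paired, as their deviations correlated at -0.109 to 0.188.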

Additional observations from a re-analysis of the deposited data

Results flagged for a closer look

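Of 150 groups of 4 libraries examined for a library far from the other 3, 7 held one (4.7%), where chance gives about 1 in 20. In skeletal muscle, Cox4i2 lay at 0.233 CPM in VEH replicate 1, below 0.835 to 0.976 CPM in the others, but on 2 reads against 7 to 9, under the floor of 3 reads (0.349 CPM in that library). Cox6b1, a complex IV subunit, lay at 26.8 CPM in VEH replicate 2, below its group. mt-Co2 lay at 1144 CPM in VEH replicate 4, against 614 to 642 CPM in the others, a library in which 11 of the 13 mitochondrial genes were at their highest. Sdha lay at 432 CPM in VEH replicate 3, the library with the most slow fiber RNA. Ndufb1 lay at 3.79 CPM in BAY replicate 4, on 27 reads. In cortical bone, Cox4i1 lay at 12.9 CPM in BAY replicate 4 and Sdha at 8.29 CPM in VEH replicate 2, the 2 libraries with the fewest reads on genes and the highest olfactory receptor levels. What set these values apart was not tested.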

How the results depend on the processing

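In muscle, all 17 lowered genes kept a fold change under 0 in every alternative. The count of members lower was 10 with array weights, 29 with median centring, 7 without a mean-variance trend and 27 with quantile normalization, and it ranged from 7 to 24 with 1 library left out. The lowest counts were those without VEH replicate 3 (7), BAY replicates 1 and 4 (8 each) and VEH replicate 1 (11). The count of higher genes ranged from 0 to 1. The difference in Cox7a1 share ranged from 4.34 to 6.91 percentage points with 1 library left out, at an exact permutation P value of 0.0571, the smallest that 3 against 4 allow. With the replicate number as a block, 16 genes were lower, 15 of them among the 17, and 0 in bone, but the numbers pair no mice. In bone, the higher count was 2 with CPM over nuclear genes, 43 with array weights and 1 each with the filter at 1 CPM, without a trend and with voom, and it ranged from 0 to 5 with 1 library left out. In the same order, 286, 901, 82, 408 and 1433 of all genes in those fits passed in either direction, and 115 to 1116 with 1 library left out. The nuclear median in bone was 1.55 with array weights and -0.030 with median centring. Cox6a2 in bone ranged from -2.47 to 3.79 around its -0.62 with 1 library left out, the highest without BAY replicate 4, where it was listed at 0. The cause of these shifts was not tested. Subtracting background from the bone isoform shares was not run, since no bone pair had enough reads. In bone, 3 reads correspond to 3.23 CPM in the shallowest library.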
